A study of Homo sapiens with 4 samples.

Results

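Distal intergenic STAT5A peaks beyond 50 kb are binding sites outside genes and more than 50 kb from any transcript start in the authors' annotation. They were taken from the authors' peak lists as every peak annotated "Distal Intergenic" with an absolute distance to the transcript start above 50000 bp. The knockdown list held 2860 of them among 31227 peaks, and the wild-type list held 4632 among 55269, which makes 7492 of 86496 peaks in all. The lists come from chromatin immunoprecipitation and sequencing (ChIP-seq) of ARP1 cells, an established line of multiple myeloma (a plasma cell cancer) labelled as bone marrow. Wild-type cells and cells with a knockdown of YTHDF2, a protein that binds N6-methyladenosine on RNA, were each profiled with an antibody to STAT5A (abcam, ab32043) beside an input library without antibody. The labels do not give how YTHDF2 was knocked down, and they name no treatment or cytokine for either condition. Each condition had 1 immunoprecipitated library, so differences between the lists were not tested and stand without a check by replicates.

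STAT5A is a transcription factor that is phosphorylated by JAK kinases, pairs, and binds DNA at the palindrome TTCNNNGAA. Distal sites of a transcription factor are commonly enhancers, which act on genes over long stretches of chromatin, so the nearest gene need not be the gene they act on. A gene named below for a distal peak is therefore the gene credited in the lists by distance and not a shown target. A gene desert is a long stretch of chromosome with few genes, often beside developmental regulators.

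The strongest distal peak of both conditions lay over a transcript start that the lists' annotation did not name. It was credited to SIPA1L2, the gene of a GTPase-activating protein of the Rap family, from 67.8 kb upstream in wild type and 68.1 kb in knockdown. The fold enrichment, the authors' ratio for a peak, was 355 in wild type (chr1:232629321-232630874, hg38) and 92.5 in knockdown (chr1:232629685-232630757). Both peaks covered a RefSeq promoter window of SIPA1L2 itself and that of LOC124904551, a long non-coding RNA gene on the opposite strand. A promoter window runs from 250 bases before a RefSeq transcript start to 50 bases after it.

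Other distal peaks present in both lists overlapped the promoter windows of RefSeq starts. At TLR2, a receptor for bacterial lipoproteins, the peak had a fold of 14.3 in wild type (chr4:153683965-153685018) and 4.60 in knockdown (chr4:153683862-153684954), and the lists credited it to TMEM131L, over 50 kb away. At STOX2, a storkhead-box gene, the folds were 12.4 (chr4:183797226-183798591) and 6.33 (chr4:183797207-183797843). CNTN3, which encodes a contactin of the neuronal surface, had folds of 9.56 (chr3:74614447-74615037) and 9.40 (chr3:74614386-74614978). The wild-type peak second in fold lay 72.0 kb from HNRNPD, the gene of the RNA-binding protein AUF1, and covered the start of LOC105377308. Its folds were 53.7 (chr4:82284891-82285397) and 15.4 (chr4:82284928-82285343). The 250 bases before these starts are shown because the strongest distal peak, the next one in wild type and peaks at named coding genes cover them in whole or in part. They were read from RefSeq (GRCh38.p14) on the strand of the gene, and capitals mark CCAAT on either strand, a motif bound by the factor NF-Y.
SIPA1L2 (chr1:232630134-232630383, minus strand): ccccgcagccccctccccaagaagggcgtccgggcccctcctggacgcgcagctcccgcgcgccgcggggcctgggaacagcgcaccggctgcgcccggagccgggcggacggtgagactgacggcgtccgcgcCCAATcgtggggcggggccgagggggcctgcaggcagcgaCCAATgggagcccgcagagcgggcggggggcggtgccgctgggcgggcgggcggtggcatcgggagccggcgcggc
LOC105377308 (chr4:82285247-82285496, minus strand): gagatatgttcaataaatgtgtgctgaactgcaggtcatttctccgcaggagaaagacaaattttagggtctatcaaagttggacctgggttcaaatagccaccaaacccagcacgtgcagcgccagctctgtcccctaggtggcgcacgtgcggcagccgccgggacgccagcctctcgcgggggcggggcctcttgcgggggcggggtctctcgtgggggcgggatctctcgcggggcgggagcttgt
TLR2 (chr4:153684030-153684279, plus strand): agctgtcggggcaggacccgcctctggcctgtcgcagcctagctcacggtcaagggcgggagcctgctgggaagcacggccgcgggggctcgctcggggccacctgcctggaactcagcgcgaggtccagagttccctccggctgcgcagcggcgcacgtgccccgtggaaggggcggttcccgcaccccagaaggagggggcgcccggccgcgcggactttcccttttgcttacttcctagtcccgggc
STOX2 (chr4:183797772-183798021, plus strand): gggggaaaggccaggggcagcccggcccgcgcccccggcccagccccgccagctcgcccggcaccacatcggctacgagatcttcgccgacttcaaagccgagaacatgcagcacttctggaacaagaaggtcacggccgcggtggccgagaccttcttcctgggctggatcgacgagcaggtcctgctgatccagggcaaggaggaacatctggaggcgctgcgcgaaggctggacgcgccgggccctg
CNTN3 (chr3:74614660-74614909, minus strand): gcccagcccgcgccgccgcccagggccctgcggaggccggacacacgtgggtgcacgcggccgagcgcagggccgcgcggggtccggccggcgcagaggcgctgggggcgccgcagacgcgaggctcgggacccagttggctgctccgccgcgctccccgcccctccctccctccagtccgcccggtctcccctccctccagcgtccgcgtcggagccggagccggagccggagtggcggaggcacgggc

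None of these 5 windows held TTCNNNGAA on either strand, and SIPA1L2 alone held CCAAT, at 2 places. They were rich in G and C, from 61.6% at LOC105377308 to 81.6% at CNTN3, and held between 19 and 38 CG dinucleotides. Over all 34789 distinct RefSeq windows the median was 58.0% G and C with 11 CG dinucleotides, and 6.57% of windows held TTCNNNGAA and 32.0% held CCAAT. Of the 131 windows under a wild-type distal peak, 3.05% held TTCNNNGAA and 19.1% CCAAT. Of the 73 under a knockdown distal peak, 5.48% and 15.1% did. Windows under any peak had a median of 67.6% G and C with 23 CG dinucleotides in wild type and 68.4% with 24 in knockdown. They held TTCNNNGAA in 4.16% and 4.20% of cases and CCAAT in 30.4% and 32.3%. A missing match says only that these letters are not in the 250 bases searched.

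A minority of the distal peaks overlapped the promoter window of such a start. In knockdown 59 of them (2.06%) overlapped a RefSeq promoter window, against 31.2% of all knockdown peaks, and in wild type 112 (2.42%) did, against 21.8%. The rule takes only peaks more than 50 kb from a start in the authors' annotation. A share below that of all peaks therefore follows from the definition and is not a result. Most overlapped windows of long non-coding RNA genes (54 of the 59 and 95 of the 112). The same count was not made over all peaks, and starts in the authors' annotation were left out by the rule. It is therefore not shown to be a trait of distal peaks. A window of a gene listed as protein-coding was overlapped by 7 and 20 distal peaks, not all of which reached the start itself. Besides the genes above, JAKMIP3 (fold 14.1 in wild type, 3.74 in knockdown), PDE1C, a cyclic nucleotide phosphodiesterase gene (10.8 and 3.05), and HAPSTR2 (9.44 and 4.17) had peaks in both lists. Distal peaks on promoter windows had a median fold of 4.89 in knockdown and 7.59 in wild type, and those off them 4.23 and 5.58. They also overlapped the other list more often in number, 86.4% (95% interval 75.0 to 94.0%) against 53.9% (52.0 to 55.8%) in knockdown and 52.7% (43.0 to 62.2%) against 31.0% (29.6 to 32.3%) in wild type. Such intervals, here and below, are exact Clopper-Pearson intervals that cover counting error only.

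**Figure D1:**
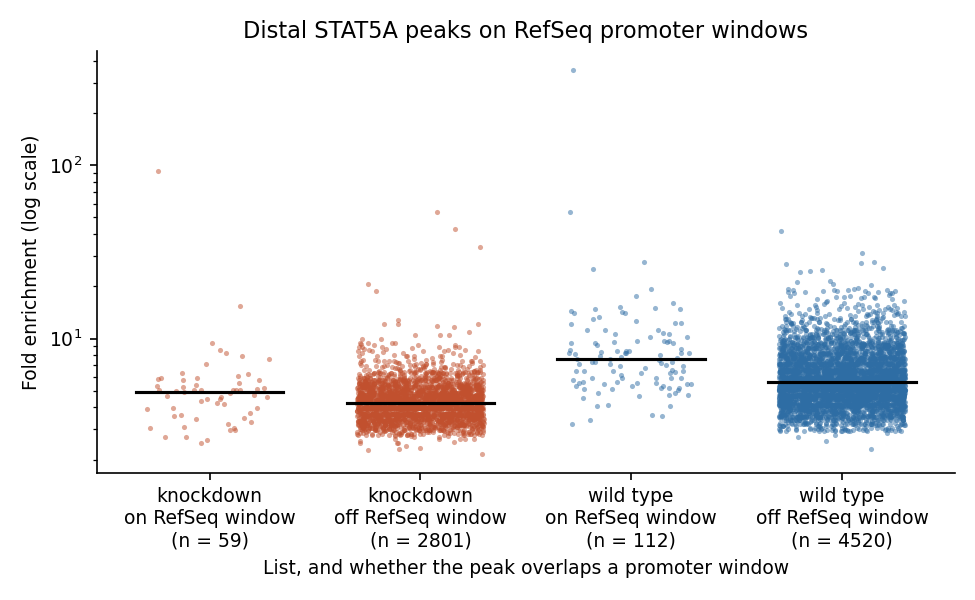
Fold enrichment (log scale) of each distal intergenic STAT5A peak beyond 50 kb, by list and by whether it overlaps a RefSeq promoter window; each point is a peak and the black line is the median. The medians on windows are 4.89 in knockdown and 7.59 in wild type, and the highest point of each list is the SIPA1L2 peak.

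The label "distal intergenic" depended on the annotation. Of the knockdown peaks in the class, 681 (23.8%) overlapped a gene in the RefSeq table and 767 (26.8%, 25.2 to 28.5%) lay more than 50 kb from every RefSeq gene, pseudogenes included. In wild type 1217 (26.3%) overlapped a RefSeq gene and 1125 (24.3%, 23.1 to 25.5%) were beyond 50 kb from all of them. Among distal intergenic peaks within 50 kb, 28.8% in knockdown and 25.9% in wild type overlapped a RefSeq gene. Of all peaks, 78.6% and 78.5% did. Both distal intergenic classes lie outside genes in the authors' annotation, so their lower shares follow from the definition. Long non-coding RNA genes were the most frequent kind hit by the class beyond 50 kb, with 364 knockdown and 628 wild-type peaks. From RefSeq protein-coding genes alone, 82.1% of knockdown and 80.6% of wild-type distal peaks were more than 50 kb away. The credited transcript and the RefSeq gene of the same identifier did not overlap for 35 knockdown and 53 wild-type peaks. CBS, which encodes cystathionine beta-synthase, is an example. The lists place a CBS transcript at chr21:6447261-6450632, and RefSeq places CBS at chr21:43053191-43076873.

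Distal peaks had lower folds than the peaks outside the distal intergenic class. In knockdown their folds ran from 2.17 to 92.5 with a median of 4.23 and quartiles of 3.62 and 4.95, against a median of 4.43 for knockdown peaks outside distal intergenic sequence. In wild type they ran from 2.29 to 355 with a median of 5.58 and quartiles of 4.56 and 7.25, against 6.19 outside it. A fold of at least 5 was reached by 680 knockdown distal peaks (23.8%), against 32.7% of all knockdown peaks, and by 3010 in wild type (65.0%), against 68.4%. A fold of at least 20 was reached by 5 distal peaks in knockdown (0.175%, against 3.63% of all knockdown peaks) and by 17 in wild type (0.367%, against 4.62%). The peaks were narrow, at a median width of 321 bp (knockdown) and 405 bp (wild type), and all peaks had medians of 419 and 507 bp. Distal intergenic peaks within 50 kb of a start had nearly the same median folds, 4.05 and 5.48. Folds recurred between peaks. The distal peaks had 913 distinct values in knockdown and 1315 in wild type, and all peaks had 7616 and 10251. The value 5.31 was shared by 131 wild-type distal peaks.

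**Figure D2:**
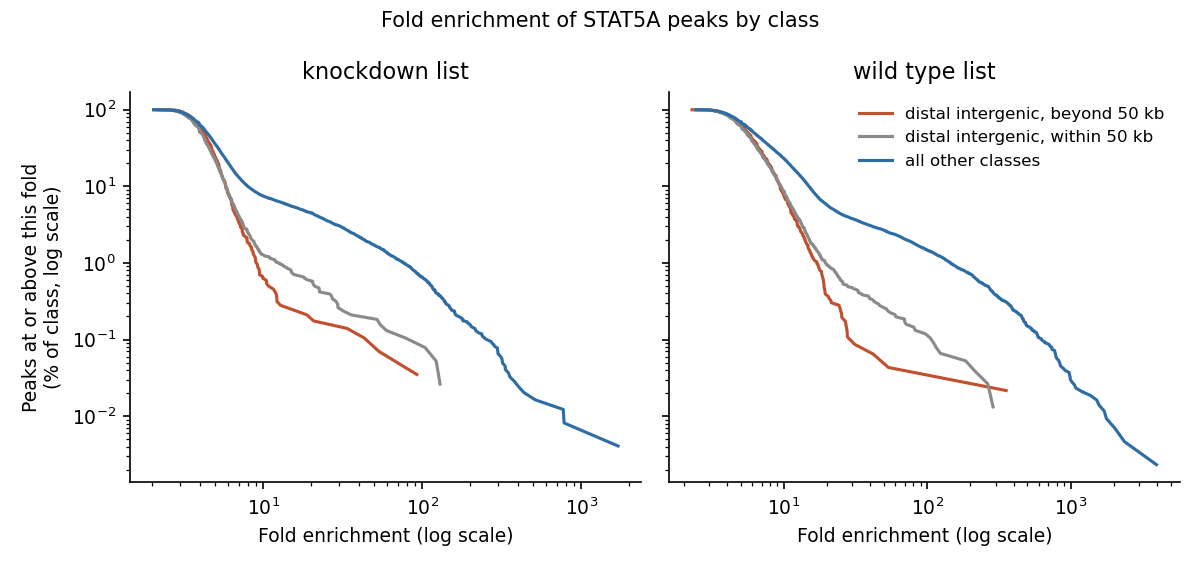
Share of STAT5A peaks (percent of the class, log scale) at or above a given fold enrichment (log scale), for distal intergenic peaks beyond 50 kb, those within 50 kb, and all other classes, in the knockdown list (left) and the wild-type list (right). At a fold of 5 the class beyond 50 kb stands at 23.8% in knockdown and 65.0% in wild type, and at a fold of 20 it holds 5 and 17 peaks.

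Among the strongest distal peaks of the knockdown list, several had a higher fold there than in the wild-type list. This is a description of 2 lists and not a measured change. The peaks were picked by their knockdown fold, and such a pick by itself favours a lower fold in the other list. After SIPA1L2, the knockdown list was led by the peak credited to CBS (fold 53.4, chr21:6369128-6372463), which had a wild-type fold of 41.9. As given above, RefSeq places CBS elsewhere on chromosome 21, so this peak is not shown to flank that gene. Next came a peak 103 kb upstream of DIAPH3, a formin gene, with 43.1 in knockdown (chr13:60267244-60268070) and 11.2 in wild type. A peak 202 kb upstream of TLE3, the gene of a Groucho-family corepressor, had 33.6 in knockdown (chr15:70300357-70300768) and 18.9 in wild type. The peak 129 kb from GDAP2 had 20.8 (chr1:117758593-117759065) and 9.69, and one at 50.1 kb from USP17L3, a member of a deubiquitinase gene family with near-identical copies, had 18.8 and 18.5. At such copies the placement of reads is uncertain.

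The remaining leaders of the wild-type list had higher folds there, and their pick by wild-type fold favours that direction in the same way. The peak credited to LOC100240728 had a fold of 31.3 in wild type (chr7:56368577-56370954) and 8.24 in knockdown. One 65.5 kb upstream of FBRSL1 had 27.8 (chr12:132423266-132424085) and 5.81, and one 120 kb upstream of RRP15, a ribosome biogenesis gene, had 27.6 (chr1:218164518-218165622) and 8.60. The RRP15 peak covered the RefSeq start of LOC105372923. Thus all 6 leaders of each list were present in both. So were most peaks of any class at such folds. At 20 or more, 100% of all knockdown and 99.8% of all wild-type peaks were shared, and at 10 to 20 98.8% and 90.9%.

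Distal peaks without a counterpart reached lower folds. In knockdown the highest were 12.8 at 356 kb from OTOL1, an inner ear gene (chr3:161852687-161853047), and 10.5 at 349 kb upstream of SNX16, a sorting nexin gene. Peaks upstream of ROBO1, an axon guidance receptor gene, and of WDR44 both had 8.96. In wild type the highest were 18.9 near MIR5692A1, 18.6 at 332 kb from LINC01029 (chr18:77650870-77651131), 17.4 at 113 kb upstream of CYTOR and 16.4 at 158 kb upstream of PARP11 (chr12:4031004-4031941).

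Between the conditions, the wild-type list held 1.62 times as many distal peaks as the knockdown list, where the ratio over all peaks was 1.77. This direction depended on the length of the lists. When the wild-type list was reduced to its top 31227 peaks by q-value, it held 2159 distal peaks and the ratio was 0.755. Of the knockdown distal peaks, 1561 (54.6%, 52.7 to 56.4%) shared 1 bp or more with a wild-type peak, against 77.1% of all knockdown peaks. Of the wild-type distal peaks, 1458 (31.5%, 30.1 to 32.8%) overlapped a knockdown peak, against 40.4% of all wild-type peaks. When the wild-type list was cut to 31227 peaks the order turned, at 39.3% for knockdown and 47.2% for wild type, and with summits required within 100 bp the shares were 26.0% and 16.0%. The partner was itself a distal peak beyond 50 kb for 1538 of the 1561 and for 1454 of the 1458. Merged across the lists, the distal peaks formed 5943 regions, of which 1443 held distal peaks of both lists, 1322 of knockdown only and 3178 of wild type only.

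Stronger distal peaks were found in both lists more often. At folds of 20 or more, all 5 distal peaks of the knockdown list and all 17 of the wild-type list had a counterpart, as did 100% and 99.8% of all peaks at such folds. In the knockdown list the shared percentage was 48.9% for folds of 3 to 4, 65.2% for folds of 5 to 7 and 87.8% for folds of 7 to 10. For the same ranges it was 14.5%, 27.2% and 46.0% in wild type. All peaks in these ranges were shared in 67.3%, 86.2% and 96.4% of cases in knockdown and in 11.5%, 25.2% and 54.7% in wild type. Shared distal peaks had a median fold of 4.35 in knockdown and 7.02 in wild type, and unshared ones 4.10 and 5.31.

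Distance from the transcript start went with small differences in fold and with larger ones in sharing. The median distance was 126 kb in knockdown and 117 kb in wild type, and 49.1% and 49.6% of distal peaks lay upstream of the credited gene. Among knockdown peaks 56.7% (53.8 to 59.6%) were shared at 50 to 100 kb, 50.5% (47.3 to 53.8%) at 100 to 250 kb and 71.3% (61.0 to 80.1%) beyond 1000 kb. In wild type the values were 30.7% (28.6 to 32.7%), 29.4% (27.2 to 31.8%) and 42.5% (34.3 to 50.9%). The bin beyond 1000 kb held 94 knockdown and 146 wild-type peaks, with median folds of 4.80 and 6.49. The farthest peak of both lists was credited to OR11H1, an olfactory receptor gene, from 4.79 Mb away (chr22:10741311-10742230, fold 25.3 in wild type and 5.92 in knockdown). It covered the RefSeq start of LOC105379418, a long non-coding RNA gene. All 14 knockdown and 26 wild-type distal peaks credited to OR11H1 lay beyond 1000 kb, and 11 and 12 of them were shared. How far peaks credited to single genes weigh on the shares of this bin was not tested.

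At the threshold itself, the folds of peaks on either side ran from 3.24 to 6.75. Just beyond it lay knockdown peaks upstream of USP29 (fold 5.96) and ACTRT2 (5.49), and wild-type peaks upstream of FBRSL1 (5.44) and CYSLTR1 (4.56). Just within it lay knockdown peaks near LMX1B (3.24) and INPP4B (4.32), and wild-type peaks near GPC1 (6.75) and MIR5008 (6.35).

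**Figure D3:**
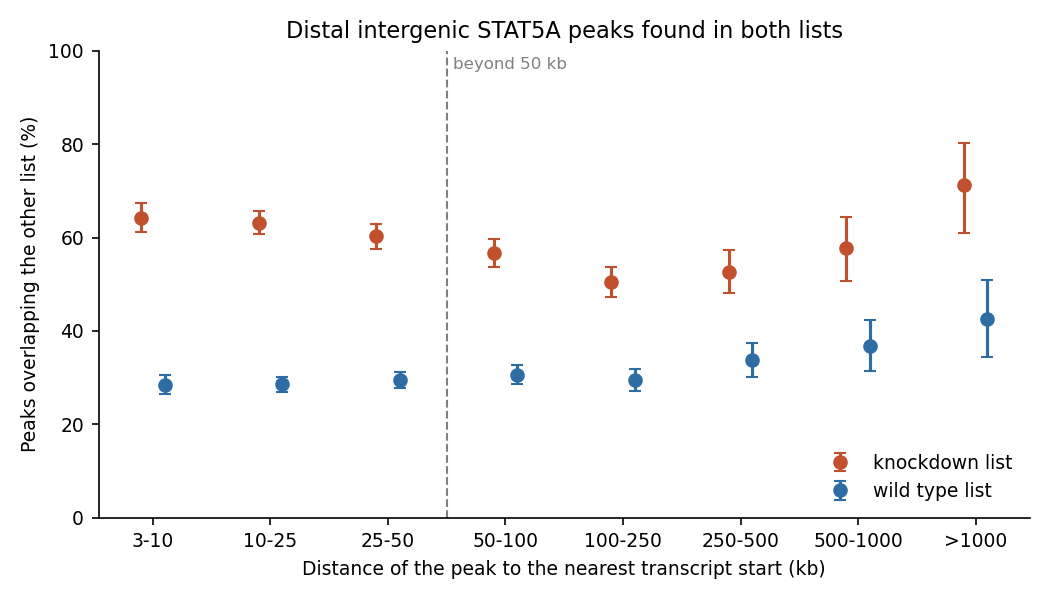
Percentage of distal intergenic STAT5A peaks that overlap a peak of the other list, by distance to the nearest transcript start in kb; points are the observed shares, bars are exact 95% intervals, and the dashed line is the 50 kb threshold. Beyond 1000 kb the shares are 71.3% in knockdown and 42.5% in wild type, the highest of each list.

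Along the genome, the distal share of a chromosome's peaks varied widely. On chromosome 18 they made up 18.2% of knockdown and 16.5% of wild-type peaks, on chromosome 8 16.5% and 12.9%, on chromosome 13 15.1% and 13.7%, and on chromosome 4 13.7% and 14.2%. Gene-dense chromosome 19 stood at the other end with 1.36% and 0.764%, followed by chromosome 17 with 3.53% and 2.28%. The wild-type to knockdown ratio in number ran from 1.11 on chromosome 19 and 1.17 on chromosome 18 to 2.08 on chromosome 2 and 2.10 on chromosome 9. Over all peaks of these chromosomes the ratio was 1.99 on chromosome 19, 1.29 on chromosome 18, 1.74 on chromosome 2 and 2.06 on chromosome 9.

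**Figure D4:**
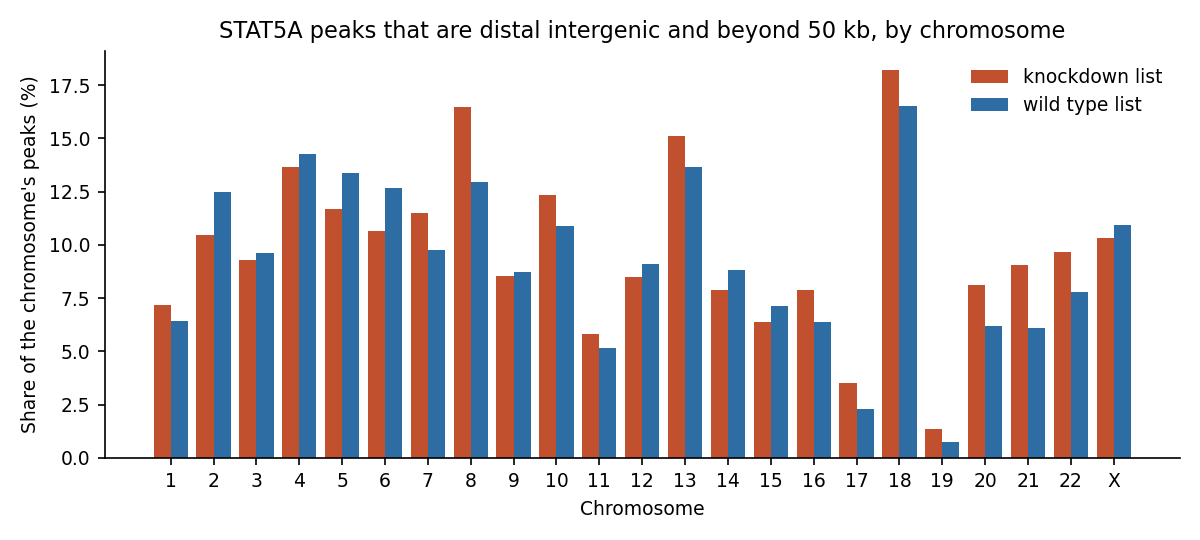
Distal intergenic STAT5A peaks beyond 50 kb as a percentage of all STAT5A peaks on each chromosome, with 1 bar per list. Chromosome 18 has the highest bars (18.2% and 16.5%) and chromosome 19 the lowest (1.36% and 0.764%).

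Some distal peaks came in crowded stretches. In knockdown 981 of them (34.3%, 32.6 to 36.1%) lay within 10 kb of another, and in wild type 2065 (44.6%, 43.1 to 46.0%). Counting a neighbour of any class, 35.8% (34.1 to 37.6%) and 46.0% (44.6 to 47.5%) of distal peaks had one within 10 kb, where 49.9% and 67.6% of all peaks did. With the wild-type list cut to 31227 peaks, 28.3% of its distal peaks lay within 10 kb of another distal peak, which turned the order of the lists, and restricting knockdown to folds from 5 upwards left 12.8%. Windows of 1 Mb with 10 or more distal peaks numbered 43 in knockdown and 72 in wild type, and they held 26.9% and 35.3% of all distal peaks. At the other extreme, 581 and 585 windows held a single one.

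Over both lists together, the window with most distal peaks lay beside SALL3, a spalt-family zinc finger gene, at chr18:78000001-79000000. It held 53 knockdown and 70 wild-type distal peaks, of which 33 and 32 were shared, with median folds of 4.26 and 5.34. A window on chromosome 8 (46000001 to 47000000) held 56 and 60, all credited to LINC00293, and 22 of each were shared. On chromosome 12 (34000001 to 35000000), 37 and 56 peaks were credited to ALG10, a glucosyltransferase gene of N-glycan synthesis. There 29 knockdown and 16 wild-type peaks were shared. Over all distal peaks of the window, the median width was 579.5 bp in wild type and 386 bp in knockdown. The broadest wild-type distal peak, 11670 bp with a fold of 12.3, lay in that window. The next windows lay at chromosome 5 (2000001 to 3000000, 26 and 58 peaks), credited to CTD-2194D22.4 and to IRX2, an Iroquois homeobox gene, and at chromosome 22 (49000001 to 50000000, 33 and 49 peaks), credited to MIR3667HG and LINC01310.

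Some crowded stretches were runs of closely spaced peaks. Beside NKX1-1, a homeobox gene, and FAM53A, 24 knockdown peaks spanned 74.3 kb (chr4:1489715-1564038) and all 24 overlapped wild-type peaks, where 43 peaks spanned 106 kb. Between TTC34 and ACTRT2 on chromosome 1, 26 knockdown and 48 wild-type peaks formed such runs, with 18 shared in each list. At ALG10 the runs held 29 and 50 peaks. The 12 knockdown peaks near CTDP1 (chr18:79603631-79628777), a phosphatase gene for RNA polymerase II, were all shared. None of the 15 wild-type peaks in a run near GPC1 (chr2:240339850-240383676) overlapped the knockdown list. Over all distal peaks, 54.6% of the knockdown and 31.5% of the wild-type ones were shared, and over all peaks 77.1% and 40.4%. The runs near CTDP1 and GPC1 are extremes chosen after their values were seen. Neighbouring peaks of a run are not separate observations, and no difference between runs was tested.

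**Figure D5:**
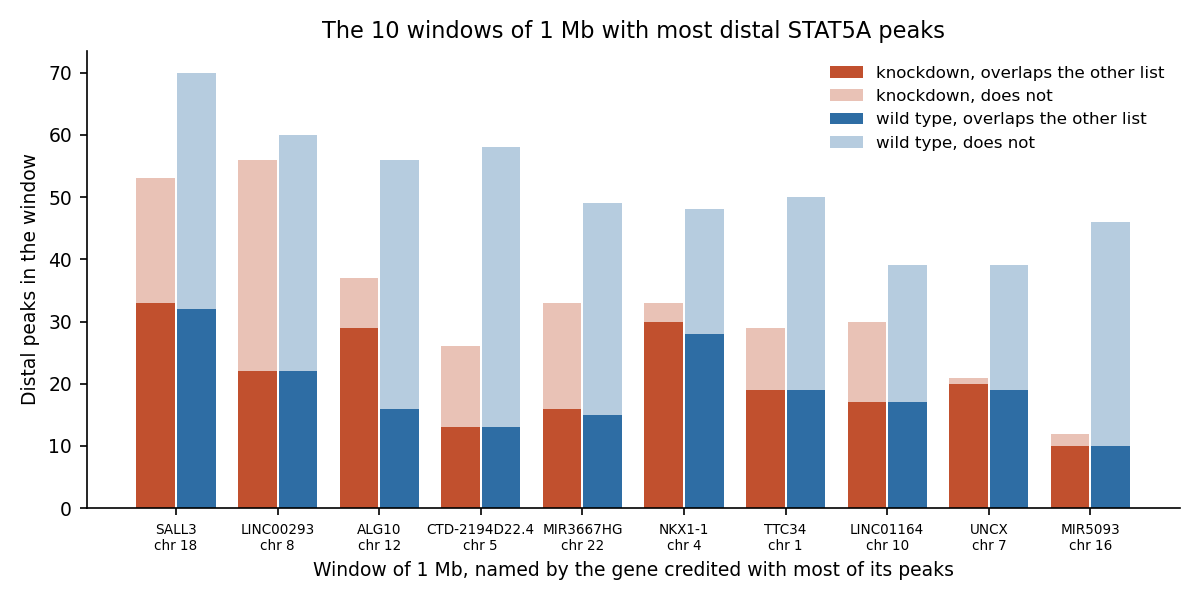
Number of distal intergenic STAT5A peaks in the 10 windows of 1 Mb that hold most of them over both lists together, named by the gene credited with most peaks; dark parts overlap the other list and light parts do not. The SALL3 window on chromosome 18 has the largest sum, with 53 knockdown and 70 wild-type peaks.

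The crowding was set beside chromosome ends and gene-free gaps. Within 5 Mb of the outermost RefSeq gene of a chromosome lay 24.8% of knockdown and 27.4% of wild-type distal peaks, and 26.8% and 33.7% of all peaks. The largest interval without a RefSeq gene on each chromosome, which on many human chromosomes spans the centromere, held 159 knockdown (5.56%) and 179 wild-type (3.86%) distal peaks. Of these, 67 and 64 lay on chromosome 8 and 38 and 60 on chromosome 12, which takes in the ALG10 run and part of the LINC00293 window. Distal peaks in these intervals were shared in 67.3% of cases in knockdown (59.4 to 74.5%) and 46.9% in wild type (39.4 to 54.5%). Their median folds were 4.06 and 5.09. Outside them 53.8% and 30.9% of distal peaks were shared, and of all peaks 77.1% and 40.4%. The crowded windows on these chromosomes differed. In knockdown, 78.4% were shared in the ALG10 window and 39.3% in the LINC00293 window, and in wild type 28.6% and 36.7%. A broad peak can overlap several peaks of the other list. Over the genome, 76 shared wild-type distal peaks overlapped 2 or more knockdown peaks, and 11 shared knockdown ones overlapped 2 or more wild-type peaks. How far such overlaps weigh on the shares of these windows was not tested. Whether repeated sequence took part in these stretches was not tested.

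Distal peaks were credited to 1367 genes in knockdown and 1838 in wild type. The lists had 1070 of them in common, 78.3% of the knockdown and 58.2% of the wild-type genes. A single distal peak was credited to 858 and 1022 genes, whereas 36 and 65 genes had 10 or more. Protein-coding genes took 60.9% of knockdown and 63.7% of wild-type distal peaks, where they took 83.8% and 83.4% of all peaks, and long non-coding RNA genes took 31.5% and 28.6%, where they took 12.0% and 11.8% of all peaks. By the sum over both lists, the genes with most were LINC00293 (56 in knockdown and 60 in wild type), SALL3 (41 and 58), ALG10 (37 and 56), the beta-defensin gene DEFB115 (25 and 39), MIR3667HG (19 and 30), CTD-2194D22.4 (16 and 31), NKX1-1 (20 and 25) and LINC01164 (16 and 27), level with LINC01310 (20 and 23). Of all protein-coding genes, 4.41% were credited with a distal peak in knockdown and 6.13% in wild type.

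Among 24 plasma cell and myeloma genes, 5 (20.8%) were credited in knockdown and 7 (29.2%) in wild type, 3 of them in both. The genes in both were FCRL5, IRF4 and PRDM1. FCRL5, a surface antigen of B and plasma cells, had a peak 69.2 kb from its start with a fold of 9.74 in wild type (chr1:157446225-157446831) and 5.03 in knockdown (chr1:157446280-157446779). PRDM1, the gene of the plasma cell regulator BLIMP1, had one 104 kb upstream with a fold of 9.44 in wild type (chr6:105981381-105982038) and 105 kb upstream with 3.48 in knockdown (chr6:105981495-105981716). IRF4, a transcription factor on which myeloma cells depend, had 5 wild-type peaks between 51.4 and 77.6 kb from its start with folds of 3.81 to 6.38. Its knockdown peak (chr6:449860-450332, fold 5.19) overlapped the one of these at 56.5 kb, which had a fold of 3.82. CCND2, which encodes cyclin D2, had wild-type peaks alone, with folds of 7.20 at 108 kb and 3.81 at 92.0 kb upstream.

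Of 30 JAK-STAT and STAT5 target genes, 3 (10.0%) were credited with a distal peak in each list, beside 4.41% of all protein-coding genes in knockdown and 6.13% in wild type. PIM1, a survival kinase gene and known STAT5 target, had a shared peak 67.3 kb upstream with a fold of 5.71 in wild type (chr6:37102494-37102871) and 4.33 in knockdown (chr6:37102425-37102872). BCL2, the gene of the survival protein, had 1 distal peak in each list at different places, with folds of 4.55 (chr18:63057744-63058082) and 3.16 (chr18:63103926-63104137). PRLR, the prolactin receptor gene, had one in wild type alone (4.50), and GHR, the growth hormone receptor gene, had one in knockdown alone (4.35).

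Of 30 RAS-RAF-MEK-ERK genes, 3 (10.0%) were credited in both lists, beside the same 4.41% and 6.13% of all protein-coding genes. SPRY2, which encodes an inhibitor of receptor tyrosine kinase signalling, had 2 knockdown and 4 wild-type peaks, and both knockdown peaks were shared. The stronger shared one lay 314 kb upstream with a fold of 10.6 in wild type (chr13:80654739-80655221) and 5.53 in knockdown (chr13:80654728-80655156). The other lay at 59.7 kb, with 7.71 and 3.95. At KSR1, a scaffold of the cascade, the peaks of the lists lay side by side without overlapping, with 14.9 at chr17:27380873-27381624 in wild type and 4.52 at chr17:27380334-27380801 in knockdown.

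Of 35 developmental transcription factor genes that border deserts, 9 (25.7%) were credited in each list and 8 in both. EBF3 had 5 knockdown and 11 wild-type peaks on both sides of the gene, of which 4 and 4 were shared, with folds up to 5.30 and 8.79. BCL11B had 3 knockdown and 6 wild-type peaks with 1 shared, and IRX1 had 1 and 7 with none shared. TSHZ3 had 1 in each list, with folds of 6.76 in wild type and 3.52 in knockdown, at different places. Of 35 adhesion and synaptic genes, 19 (54.3%) were credited in each list and 17 in both, with 38 knockdown and 58 wild-type peaks, and 21 of each were shared. CDH12 had the strongest, 430 kb from its start with a fold of 18.9 in wild type (chr5:21459337-21459763) and 3.76 in knockdown (chr5:21459391-21459801). CDH9 had 3 knockdown and 8 wild-type peaks, CDH18 had 3 in wild type alone, and PCDH18 had a shared one 108 kb from its start (9.56 and 4.84). Median folds over these adhesion genes' distal peaks were 4.62 in knockdown and 5.89 in wild type, beside 4.23 and 5.58 over all distal peaks. The lists of genes beside deserts hold genes with long intergenic flanks, so their shares are not comparable with those of all protein-coding genes. For the other gene lists flank lengths were not matched either, and no difference from all protein-coding genes was tested.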

How the data were processed

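The measurements were 2 peak lists, 1 for each condition. Per the submitters' processing notes, cutadapt, Trimmomatic, FastQC, Bowtie2 and MACS2 were used on hg38, and their versions and settings are not stated there. The fold is a linear ratio that the authors deposited for each peak, and the labels do not say over what it is taken. The q-value of each peak is also the authors' deposited value and was under 0.05 throughout. Read numbers are not in the lists, so depth is unknown. Distances in the lists run from the nearest peak edge, which was checked for every peak.

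The distal peaks and gene lists were chosen with earlier results of these data known, and no set is independent evidence. Peaks were shared when they overlapped by at least 1 bp (checked with bedtools 2.31.1). Gene identities and promoter sequences came from RefSeq GRCh38.p14, which matched 1360 of 1367 and 1829 of 1838 credited genes. Older symbols were replaced by current ones (C22orf34 by MIR3667HG). Named items are the 6 strongest, the 4 strongest unshared and the farthest distal peak of each list, those at the threshold, the 8 genes and 5 windows with most, and up to 4 genes per list. Others were chosen after their values were seen. A gene that the rule names is not reported here. Overlap and spacing steps were tested on simulated data. No test between conditions was made. A motif search in the peaks themselves was not run, since no genome sequence was used here. Python 3.11.15, numpy 2.4.6, pandas 2.3.3, scipy 1.17.1 and matplotlib 3.10.9 were used.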

Additional observations from a re-analysis of the deposited data

How the results depend on the processing

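No paired analysis was possible because each condition has 1 list, and for the same reason no replicate could be left out. Of 103 recomputed values, 54 stayed within the counting error of the reported value (for numbers of peaks, within 1.5 times) and 49 moved beyond it. Values are given for knockdown first and wild type second. Measuring distance from the summit moved none of them. Merging peaks within 100 bp joined no peaks, so its 11 values are identical, count among the 54 and are no check. At q under 0.01 the median fold was 4.35 in knockdown, the ratio in number 1.76 and the wild-type shared percentage 29.8%. At q under 0.001 the knockdown number fell to 1843 and the ratio was 2.17, with median folds of 4.70 and 5.91, 7.72% and 8.11% of all peaks, 28.0% and 41.1% within 10 kb of another, and 58.4% and 25.3% shared. At a fold of at least 5 there were 680 and 3010 distal peaks (ratio 4.43), with median folds of 5.67 and 6.59, 6.66% and 7.96% of all peaks, 12.8% and 33.1% within 10 kb, and 62.5% and 13.7% shared. Cut to as many peaks as the knockdown list, by q-value, the wild-type list held 2159 (ratio 0.755), 6.91% of its peaks, with a median fold of 7.42 and 28.3% within 10 kb, and the shared percentages were 39.3% and 47.2%. Beyond 100 kb there were 1719 and 2652 (ratio 1.54), 5.50% and 4.80% of all peaks, 32.1% and 39.1% within 10 kb, and a wild-type median fold of 5.69. Peaks at least 50 kb from both ends of the credited transcript made up 8.46% and 7.74% of all peaks. Without the 5 most crowded windows the values were 8.50% and 7.85% of all peaks and 30.6% and 41.8% within 10 kb. Sharing was 32.8% and 20.2% with a reciprocal overlap of 50%, and 26.0% and 16.0% with summits within 100 bp. The depth of the libraries is unknown, so its part in the difference in peak number was not tested.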
